A study of Mus musculus with 2 samples.

Results

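The mouse genome carries large families of hormone and cell-surface genes, many of which are used in the placenta, and their CpG states were read here in embryonic stem cells, which are not trophoblast. The genes are the autosomal protein-coding genes of the GENCODE vM21 annotation (mm10) whose symbols begin with Prl, Psg or Ceacam followed by a digit. The rule gave 53 of 20807 genes, namely 25 Prl genes on chromosome 13, and 13 Psg and 15 Ceacam genes on chromosome 7. Both libraries came from E14 cells, a mouse embryonic stem cell line grown on gelatin in medium with serum and the cytokine LIF, with genomic DNA taken at different passages. There was 1 condition and 2 libraries, replicate 1 and replicate 2, so that no test between groups of samples could be made. Main values are given for both replicates, and values of replicate 1 alone are named as such. Intervals are exact Clopper-Pearson 95% intervals and cover counting error only.

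Prolactin is a pituitary hormone, and in rodents its gene has been copied many times into a cluster of relatives that trophoblast and decidual cells secrete during pregnancy. The Psg genes encode pregnancy-specific glycoproteins, secreted immunoglobulin-family proteins of trophoblast, and the Ceacam genes encode related adhesion molecules, some used in epithelia and others in trophoblast. In trophoblast biology the placental Prl and Psg genes are textbook cases of genes that are off in the embryo proper and on in giant cells or spongiotrophoblast. Methylcytosine (mC) at both cytosines of a CpG is the common state of silent CpG-poor DNA, and TET enzymes oxidize it to hydroxymethylcytosine (hmC).

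SCoTCH-seq tethers the strands of each DNA fragment with a hairpin and so reads C, mC and hmC at both cytosines of a CpG in the same molecule. A call is 1 such reading, and a level is the percentage of the calls of a region in a given state. CC is unmodified and MM is methylated on both strands. MC/CM has mC opposite C, HC/CH has hmC opposite C, HM/MH has hmC opposite mC, and HH has hmC on both strands. Promoter means 1 kb either side of the transcription start site (TSS), and body the rest of the gene beyond it. Sites with fewer than 5 calls in a replicate are not in the files. Replicate 1 held 13676795 sites at a median of 10 calls and replicate 2 held 4918612 sites at a median of 6, so that replicate 1 is the more precise of the pair at almost every gene. Since only DNA was measured, stem cell genes were read at their promoters only. Of Pou5f1, Nanog, Sox2, Klf4, Esrrb and Zfp42, every promoter but that of Esrrb was mostly CC in both replicates, the next lowest being Nanog at 80.1% in replicate 1, and Esrrb was 28.0% and 15% CC. The median of the 6 was 98.0% CC in replicate 1 and 99.4% in replicate 2. Over all genes the median promoter was 85.4% and 82.1% CC. A promoter that is mostly CC is thus common and does not by itself tell the cell type.

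The promoters of the 3 families are poor in CpG sites, so that each promoter value rests on few positions. The median promoter held 9 CpG sites in Prl, 7 in Psg and 14 in Ceacam genes, against 64 over all genes. RefSeq promoter windows (GRCm38.p6, 250 bases before to 50 after the start) were found for 44 of the 53 symbols, and in each family the median window held 2 CpG sites, against 7 over all 27025 promoters. The following windows show how few positions the promoter values rest on, with each CpG in capitals. They hold placental lactogen I, a pair of other Prl genes, a Psg gene and a pair of Ceacam genes whose states differ.
Prl3d1, chr13:27093939-27094238, + strand: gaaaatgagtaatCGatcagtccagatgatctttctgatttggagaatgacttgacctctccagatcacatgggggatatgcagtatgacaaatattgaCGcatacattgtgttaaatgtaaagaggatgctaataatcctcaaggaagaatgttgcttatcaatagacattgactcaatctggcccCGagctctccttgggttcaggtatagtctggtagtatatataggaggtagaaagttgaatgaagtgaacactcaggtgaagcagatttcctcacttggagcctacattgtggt
Prl4a1, chr13:28015962-28016261, + strand: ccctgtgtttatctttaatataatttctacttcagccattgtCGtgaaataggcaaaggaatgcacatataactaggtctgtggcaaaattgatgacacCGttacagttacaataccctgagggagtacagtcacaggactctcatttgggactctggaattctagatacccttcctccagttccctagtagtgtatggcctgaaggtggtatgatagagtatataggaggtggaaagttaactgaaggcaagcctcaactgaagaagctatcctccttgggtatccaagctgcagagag
Prl8a8, chr13:27513168-27513467, - strand: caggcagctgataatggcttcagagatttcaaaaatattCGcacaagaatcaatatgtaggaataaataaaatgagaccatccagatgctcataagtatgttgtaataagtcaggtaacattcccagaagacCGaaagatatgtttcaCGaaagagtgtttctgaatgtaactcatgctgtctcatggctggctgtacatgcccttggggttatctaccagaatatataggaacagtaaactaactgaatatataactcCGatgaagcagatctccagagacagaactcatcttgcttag
Psg17, chr7:18821542-18821841, - strand: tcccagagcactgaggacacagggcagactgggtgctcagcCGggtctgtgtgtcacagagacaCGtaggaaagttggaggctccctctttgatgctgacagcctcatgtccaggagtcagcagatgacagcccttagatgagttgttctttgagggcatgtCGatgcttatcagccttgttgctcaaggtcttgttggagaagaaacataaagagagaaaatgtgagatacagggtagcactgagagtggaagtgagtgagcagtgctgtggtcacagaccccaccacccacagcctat
Ceacam10, chr7:24776954-24777253, + strand: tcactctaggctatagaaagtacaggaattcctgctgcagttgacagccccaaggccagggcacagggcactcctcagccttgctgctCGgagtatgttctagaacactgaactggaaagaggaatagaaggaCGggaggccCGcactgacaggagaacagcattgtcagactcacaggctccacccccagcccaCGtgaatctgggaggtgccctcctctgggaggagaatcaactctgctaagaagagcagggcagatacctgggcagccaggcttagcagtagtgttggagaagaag
Ceacam19, chr7:19887916-19888215, - strand: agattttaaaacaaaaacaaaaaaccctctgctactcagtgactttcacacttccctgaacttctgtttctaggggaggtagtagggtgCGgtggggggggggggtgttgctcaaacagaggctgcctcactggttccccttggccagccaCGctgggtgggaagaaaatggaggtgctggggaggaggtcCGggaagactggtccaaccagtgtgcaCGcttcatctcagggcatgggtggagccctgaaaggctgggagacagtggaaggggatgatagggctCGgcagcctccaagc

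In the Prl3d1 window all 3 CpG sites were covered in replicate 1, and MM took 7 of 12, 14 of 16 and 3 of 6 calls from the far to the near end. In Prl4a1 the 2 sites were MM in 6 of 10 and 13 of 14 calls of replicate 1, and in 5 of 6 and 3 of 5 calls of replicate 2. The 4 sites of the Prl8a8 window were MM in 7 of 13, 13 of 18, 13 of 16 and 10 of 13 calls of replicate 1. MM was the most frequent state or level with MC/CM at each of these Prl sites in replicate 1. In Psg17 the covered sites were MM in 4 of 6 and 4 of 9 calls. By contrast, the Ceacam19 window was CC in 8 of 10, 4 of 6 and 4 of 5 calls of replicate 1. Ceacam10 was mixed, with CC in 2 of 8, 6 of 11 and 8 of 11 calls and HC/CH in 2, 3 and 2 of them. These sites had 0 to 9 calls in replicate 2, so no single site is read from it alone.

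Short motifs of factors that act in trophoblast were searched on both strands of the same windows, as a description of their letters. Several windows belong to near copies such as Prl3d1, Prl3d2 and Prl3d3, so that they are not independent. TGANTCA, the AP-1 motif, was present in 9 of 21 Prl, 3 of 10 Psg and 1 of 13 Ceacam windows, against 7.93% of all windows and 11.9% of those with at most 4 CpG sites. The Prl3d1 window holds it. The letters AGATAA, which GATA-family factors bind, were present in 9 of 21 Prl, 1 of 10 Psg and 7 of 13 Ceacam windows, against 11.4% of all windows and 18% of those with at most 4 CpG sites. The letters TATAAA, a form of the TATA box, were present in 4 of 21 Prl, 0 of 10 Psg and 4 of 13 Ceacam windows, against 14.2% and 24%. Only these exact letters were searched, so a window without them can still hold another form of the TATA box. None of these matches is shown to be a bound site.

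Many of these genes are recent copies of each other, and reads from copies that match can be hard to place. Coverage was therefore taken first. Replicate 1 covered 66.3% of the CpG sites in Prl spans, 43.0% in Psg spans and 66.9% in Ceacam spans, against 68.3% over all genes, and replicate 2 covered 22.8%, 15.9% and 25.5%, against 25.4%. Psg genes were thus the least covered family in both replicates. Of the reference CpG sites, 11.8% in Prl, 10.6% in Psg and 8.41% in Ceacam genes lay in a 51-base window found more than once within the member regions. Such sites were covered in 8.16%, 10.3% and 23.4% of cases in replicate 1, against 74.0%, 46.9% and 70.8% for the other sites.

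The extreme was a pair of proliferin genes, which encode growth factors of trophoblast giant cells. Prl2c2 and Prl2c3 had no covered site in either replicate, of 35 and 41 reference sites. Repeated windows made up 80% and 65.9% of their sites. Prl2c5, another copy, had 51.5% and 24.2% of its sites covered. Among Psg genes, Psg26 was covered at 13% in replicate 1 and 1.85% in replicate 2, and Psg23 at 18.2% in replicate 1. Ceacam1 and Ceacam2, which encode epithelial adhesion molecules and share long stretches, were covered at 45.0% and 54.8% in replicate 1 and 16.3% and 18.6% in replicate 2. Sequence repeated elsewhere in the genome was not searched, and its part in the gaps was not tested. Prl2c2 and Prl2c3, with no covered site, enter no level below.

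**Figure D1:**
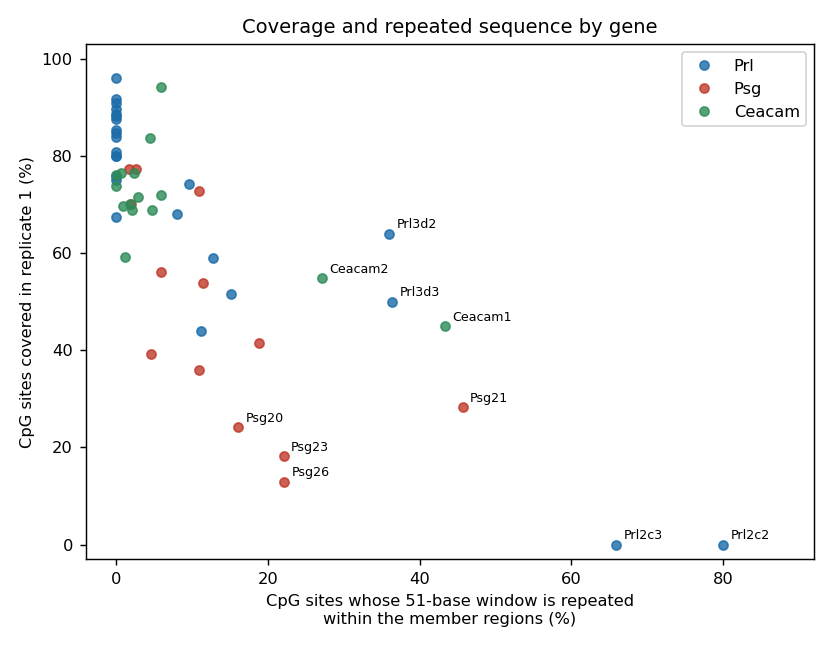
Share of CpG sites covered in replicate 1 (y axis, %) against the share of sites in 51-base windows repeated within the member regions (x axis, %), 1 point per gene, coloured by family. Prl2c2 and Prl2c3 lie at 0% coverage with 80% and 65.9% repeated sites, while genes without repeated sites lie between 67.3% and 96%.

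At promoters the Prl family was mostly MM, and the Psg and Ceacam families were split between MM and CC. Prl promoters were 63.7% MM in replicate 1 (interval 61.6 to 65.8) and 66.3% in replicate 2 (61.0 to 71.2). CC was 14% and 12.4%. Psg promoters were 41.5% MM in both replicates, with CC at 38.5% and 42.8%. Ceacam promoters were 43.6% and 43.7% MM, with CC at 36.2% and 31.6%. Over all genes the summed promoter calls were 14.9% and 16.3% MM and 76.9% and 74.9% CC, so that each family lay far on the methylated side of the average promoter. Promoters with at most 30 CpG sites are the nearer comparison, and their median was 57% and 61.4% MM. That median is over genes, whereas the family levels are sums over calls. The Prl level lay above the median in both replicates but under the upper quartile, 64.66% and 71.43%. The Psg and Ceacam levels lay below the median and under the lower quartile, 44.95% and 46.88%.

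A promoter was counted as MM where at least 50% of its calls were MM in both replicates, with at least 20 calls in each. In all, 15.4% of the 16373 genes tested met this, and 62% of the 3272 with at most 30 CpG sites. Only 6 of 25 Prl, 1 of 13 Psg and 5 of 15 Ceacam promoters had enough calls in replicate 2. The 6 Prl promoters were Prl2c1, Prl4a1, Prl5a1, Prl7a2, Prl8a1 and Prl8a6, and all 6 met the rule. Psg16 did not, and of the Ceacam genes Ceacam2 and Ceacam16 did while Ceacam10, Ceacam19 and Ceacam20 did not. In replicate 1 alone, where 23.2% of all genes and 69.2% of those with at most 30 CpG sites were called, 21 of 23 Prl, 5 of 12 Psg and 5 of 14 Ceacam promoters were called. Within 2 kb of the TSS in both replicates, where the shares were 20.7% and 66%, the counts were 17 of 19, 4 of 10 and 4 of 12. In each of these counts the Prl share exceeded the share of CpG-poor genes and the Ceacam share fell short of it. The Psg share fell short in replicate 1 alone and within 2 kb, and could not be read in the first count, where Psg16, with more than 30 CpG sites, was the 1 Psg promoter tested.

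**Figure D2:**
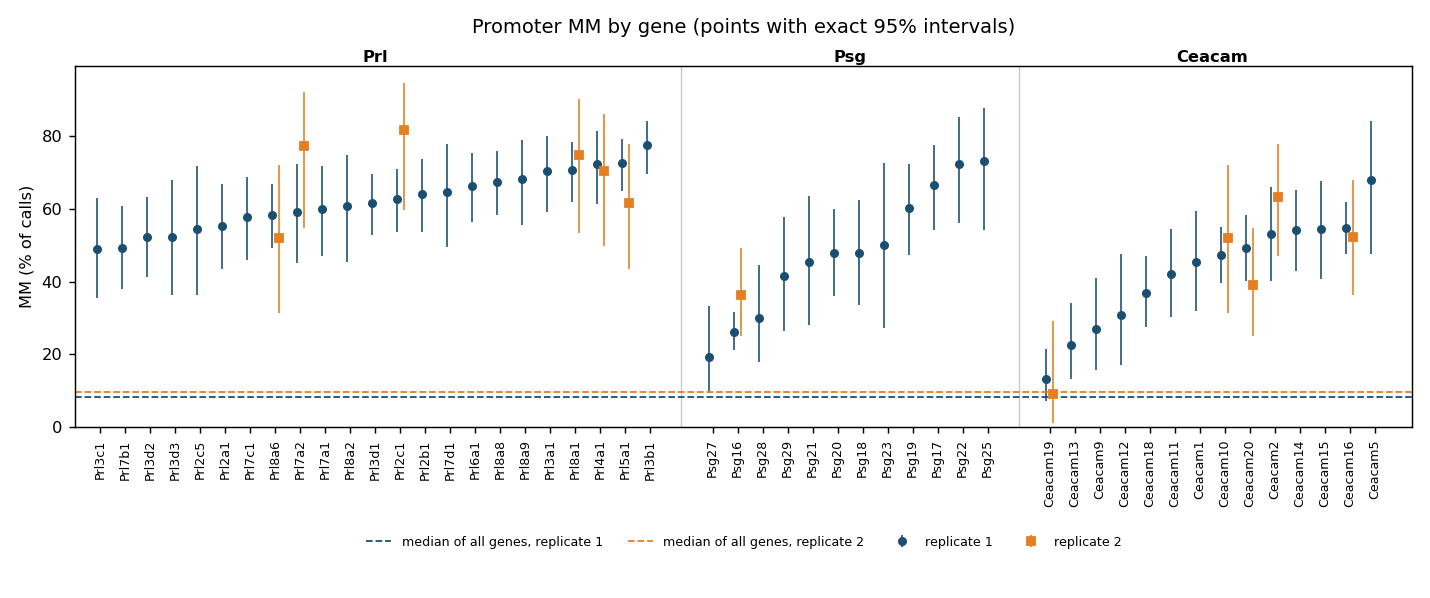
Promoter MM (y axis, % of calls) for each gene with at least 20 promoter calls in a replicate, grouped by family and ordered by replicate 1, with exact 95% intervals and dashed lines at the median of all genes (8.07% in replicate 1 and 9.52% in replicate 2). Prl genes lie between 49.1% and 77.6% in replicate 1, whereas Psg genes run from 19.1% to 73.3% and Ceacam genes from 13.1% to 67.9%.

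Placental lactogens are the best known Prl products, acting through the prolactin receptor in the mother. Prl3d1, placental lactogen I, was 61.6% MM in replicate 1 over 138 calls and 64.3% in replicate 2 over 14 calls. Its near copies Prl3d2 and Prl3d3 were both 52.4% MM in replicate 1. Prl3b1, placental lactogen II, was the most methylated Prl promoter of replicate 1, at 77.6% over 134 calls and 73.7% over 19 calls in replicate 2. Its RefSeq start lies 583 bases downstream of the TSS used here, and its RefSeq window had 0 calls in replicate 1 and 6 in replicate 2. The interval of Prl3b1 in replicate 1 was 69.6 to 84.4 and that of Prl3d1 was 52.9 to 69.7, so that they overlapped only at their ends.

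The other named Prl genes fell in the same range. Prl4a1, a product that acts on uterine natural killer cells, was 72.3% MM over 83 calls and 70.4% over 27 calls. Prl8a1 was 70.7% and 75% MM. Among the 6 Prl promoters with enough calls in both replicates, these ranked highest on the lower replicate. Prl7d1, proliferin-related protein, an inhibitor of blood vessel growth, was 64.6% MM over 48 calls and 56.2% over 16. Prl8a2, the decidual prolactin-related protein, was 60.9% over 46 calls and 62.5% over 8. Prl7a1 and Prl8a9, both made by trophoblast, were 60.0% and 68.2% MM in replicate 1. The lowest Prl promoters of replicate 1 were Prl3c1 at 49.1% and Prl7b1 at 49.4%. With 55 and 79 calls, their intervals, 35.4 to 62.9 and 37.9 to 60.9, overlapped that of Prl3d1.

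Methylation on a single strand was also frequent in the Prl family. MC/CM was 17.0% and 18.7% at Prl promoters and 16.2% and 18.4% in their bodies, against 13.3% and 14.5% in all bodies. The median body of genes with CpG-poor promoters was 14.2% and 15.4%, which lies between these. As a share of MC/CM and MM together, MC/CM was 21.2% and 22.6% in Prl bodies and 19.1% and 19.3% in all bodies. At promoters it was 21.1% and 22.0% in Prl genes and 21.6% and 22.9% over all genes, so that the share was not raised there. The highest promoters by the lower replicate were Prl7a2, with 20.4% and 18.2% MC/CM, and Prl8a6, with 18.1% and 24%.

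The subfamilies of Prl genes, taken by the digit in the symbol, kept no order between replicates among those with several genes. Promoter MM in replicate 1 was 60.7% for Prl2, 63.5% for Prl3, 57.4% for Prl7 and 65.3% for Prl8 genes, and 68.4%, 65.8%, 68.8% and 64.6% in replicate 2. Prl4, Prl5 and Prl6 hold a gene each, with 72.3%, 72.6% and 66.3% in replicate 1 and 70.4%, 61.8% and 62.5% in replicate 2. In replicate 1 the interval of Prl5a1, 65.1 to 79.2, lay above that of the Prl7 genes, 51.8 to 62.9, while in replicate 2 its level was below theirs.

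Around the TSS the Prl family lacked the rise in CC seen over all genes. In bins of 500 bp from 4 kb before to 4 kb after the start, CC of all genes rose from 30.7% to 85.8% in replicate 1 and from 27.1% to 84.2% in replicate 2. Over the same bins Prl CC stayed between 9.74% and 19.6% in replicate 1 and, on 33 to 109 calls a bin, between 5.66% and 28.6% in replicate 2. Promoters with at most 30 CpG sites had a median of 17.9% and 13.3% CC, near the Prl level. In the bin just after the start it was 11.8% in replicate 1 and 13.8% in replicate 2. Psg genes were higher there, with 54.7% and 56.8% CC over 225 and 37 calls. Psg16 alone gave 155 of the 311 CC calls of Psg promoters in replicate 1, and the bin was not read without it.

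**Figure D3:**
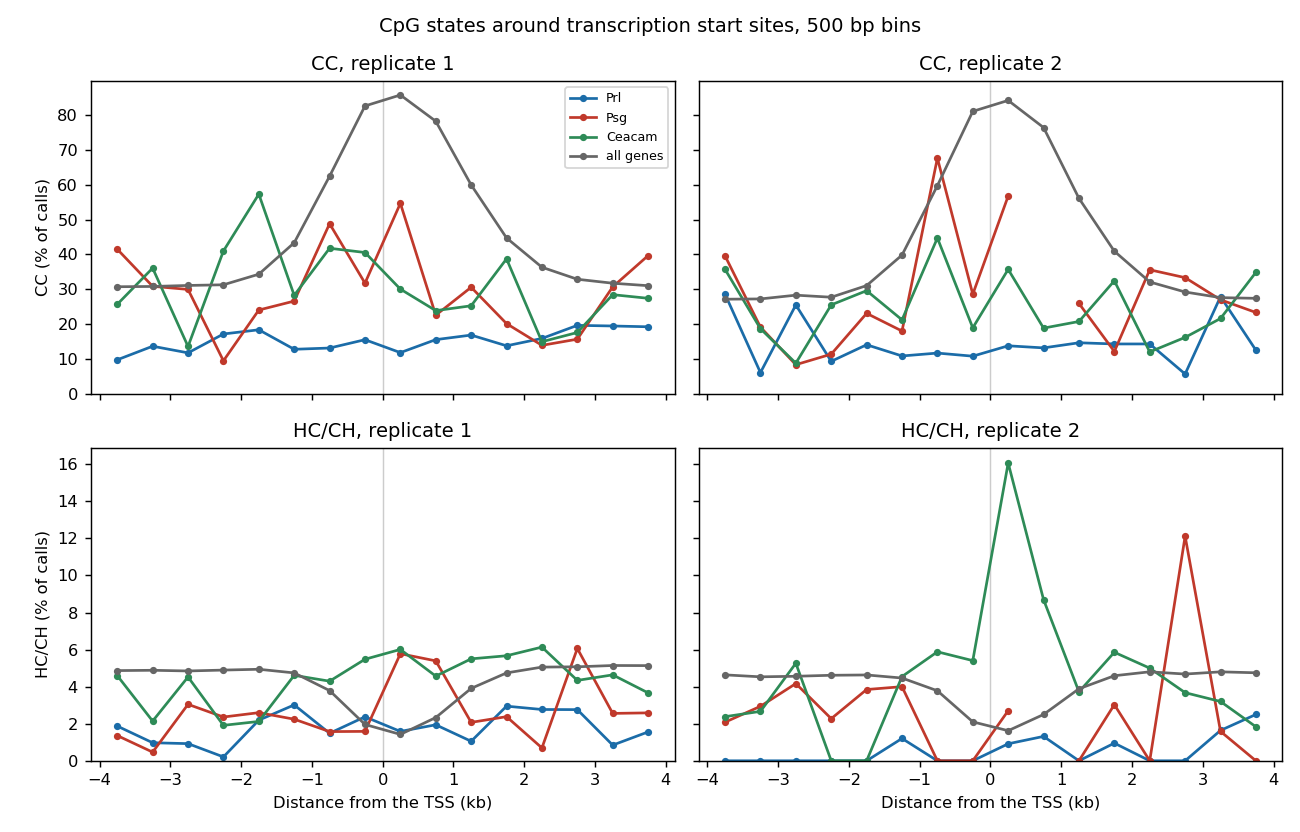
CC (upper panels) and HC/CH (lower panels), in % of calls, by distance from the TSS in kb for the 3 families and for all genes, in 500 bp bins with at least 20 calls, replicate 1 on the left and replicate 2 on the right. All genes reach 85.8% CC just after the TSS in replicate 1 while Prl genes stand at 11.8%; replicate 2 has few calls per bin in the families.

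Psg16 gave the most calls of the Psg promoters. It lies with Psg29 more than 1 Mb from the other Psg genes and had the richest Psg promoter, with 34 CpG sites. It was 54.2% CC in replicate 1 (interval 48.2 to 60.1) and 50% in replicate 2 (37.4 to 62.6), and it gave 286 of the 808 and 66 of the 152 Psg promoter calls. Without it, a choice made after the values were seen, Psg promoters were 49.8% and 45.4% MM and 29.9% and 37.2% CC. Psg22, abundant in giant cells, and Psg25 were high in MM in replicate 1, at 72.5% and 73.3% over 40 and 30 calls. Psg17, which binds the tetraspanin CD9, was 66.7% MM over 69 calls, Psg19 was 60.3% over 63 calls, and Psg23 was 50% over 20 calls. In replicate 2 Psg19 was 31.6% MM and 52.6% CC over 19 calls, so that its leading state differed between the replicates, and Psg17 was 57.1% MM over 7 calls. Psg27 and Psg28 lay at the other end with 19.1% and 30% MM and 55.3% and 54% CC over 47 and 50 calls. In replicate 2 none of these had more than 19 calls.

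In the bodies of Psg genes, exons were less often unmodified than introns. CC was 19.1% in exons (interval 17.4 to 20.9) and 30.6% in introns (29.0 to 32.3) of replicate 1. In replicate 2 it was 16.3% (13.1 to 20.1) and 29.6% (26.3 to 33.0), so that the intervals did not overlap in either replicate. Without Psg16 the values were 19.1% against 32.8% and 13.7% against 32.6%. Prl genes had 17.6% against 17.9% in replicate 1 and 13.6% against 17.8% in replicate 2, with overlapping intervals. Ceacam genes had 28.0% against 26.0% and 25.1% against 22.5%. The intervals treat calls as independent, although calls of a site can go together. Of the Psg body sites, 59 of 469 in replicate 1 and 29 of 180 in replicate 2 were CC in every call. The part of repeated sequence in the gap was not tested.

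Among Ceacam promoters, Ceacam19 had the lowest MM of the 12 members with enough calls in both replicates. It was 76.8% CC in replicate 1 (interval 67.2 to 84.7) and 86.4% in replicate 2 (65.1 to 97.1), over 99 and 22 calls. Ceacam9, a trophoblast gene, was 51.9% CC over 52 calls of replicate 1 and 33.3% over 15 calls of replicate 2. Ceacam13 and Ceacam12 were 64.2% and 61.5% CC over 67 and 39 calls of replicate 1, with 5 calls each in replicate 2. Ceacam20 was 30.7% and 34.8% CC. Ceacam2 and Ceacam16, whose product belongs to the tectorial membrane of the inner ear, were 53.2% and 54.8% MM in replicate 1 and 63.4% and 52.4% in replicate 2.

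hmC opposite C was also more frequent at some Ceacam promoters. HC/CH was 5.02% and 8.91% over the family, against 2.40% and 2.55% over all promoters and 1.89% and 0.576% over Prl promoters. Ceacam10, whose product is secreted by the seminal vesicle, had 9.94% HC/CH over 171 calls and 12% over 25 calls. Ceacam16 had 7.61% over 197 calls and 21.4% over 42 calls, where the intervals, 4.32 to 12.3 and 10.3 to 36.8, overlapped only in part. The median of promoters with at most 30 CpG sites was 4.11% and 3.33%, so that both genes lay above it in both replicates.

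In gene bodies the Prl family was low in hmC opposite C. HC/CH was 1.93% in Prl bodies of replicate 1 (interval 1.58 to 2.34, 5336 calls) and 0.983% in replicate 2 (0.473 to 1.80, 1017 calls). Over all bodies it was 4.59% and 4.10%. Psg bodies lay between, at 2.62% (2.20 to 3.1) and 1.78% (1.11 to 2.71), and Ceacam bodies were close to all genes at 4.49% (4.12 to 4.90) and 3.61% (2.92 to 4.40). The means were 1.46% ± 0.670 for Prl, 2.20% ± 0.594 for Psg and 4.05% ± 0.629 for Ceacam genes (SD, n = 2). The replicates differed by an amount similar to the gap between Prl and Psg bodies, whose intervals overlapped in both replicates. Corrected with the call rates of each library's own spike-in duplexes, Prl bodies were 1.28% and 0.806% HC/CH, against 4.09% and 4.08% in all bodies.

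Gene by gene the same was seen. In all, 39.2% of the 18347 genes with at least 20 body calls in each replicate were below the median of all genes in both replicates, and 39.2% were above it in both. All 20 Prl bodies tested were below it in both, as were 9 of 11 Psg and 5 of 15 Ceacam bodies. Above it in both were 0 Prl, 0 Psg and 3 Ceacam bodies. Of the 4849 genes with at most 30 CpG sites at the promoter, 61.5% were below and 19.5% above in both replicates, so that the Prl and Psg shares exceeded the share of such genes below and the Ceacam share above was close to theirs. Genes with at most 30 CpG sites at the promoter had a median of 3.45% and 2.86% in the body, so that they too lay below the medians of all genes, 4.85% and 4.12%. In replicate 1 the highest Prl body was Prl2c1 at 3.05% and the lowest Prl7d1 at 0.690%, both under the median of the CpG-poor genes. In replicate 2 the 20 Prl bodies rested on 24 to 77 calls each, so that a single body is loosely read there. The whole interval lay below the median of all genes for 12 of the 20 in replicate 1 and for 0 in replicate 2. Prl8a1, with 0 HC/CH calls of 41, had an interval that reached 8.60%, and Prl8a9 had the highest value, 3.23%, which is above the 2.86% median of CpG-poor genes.

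**Figure D4:**
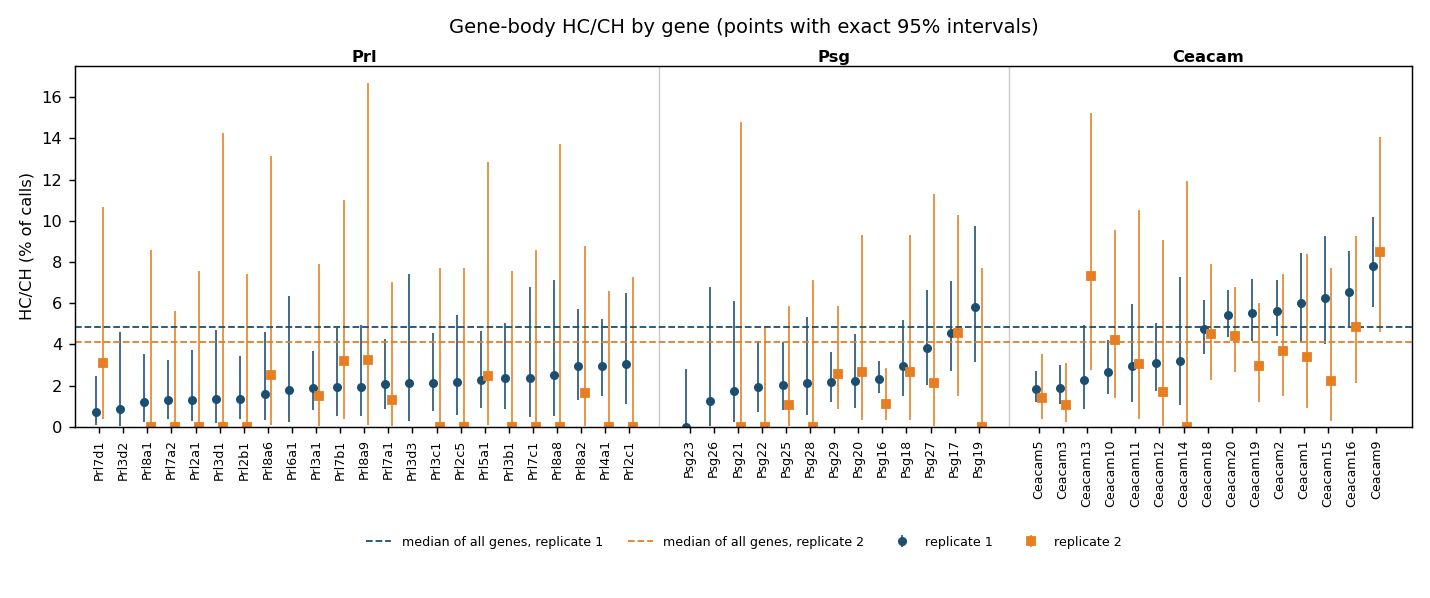
HC/CH in gene bodies (y axis, % of calls) for each gene with at least 20 body calls in a replicate, with exact 95% intervals and dashed lines at the medians of all genes (4.85% in replicate 1 and 4.12% in replicate 2). All Prl genes of replicate 1 lie between 0.690% and 3.05%, below the line, while Ceacam genes run from 1.84% to 7.81%, and replicate 2, with fewer calls, has wider intervals.

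Among the genes that went the other way, Ceacam9 had the most HC/CH of all members by the lower replicate. Its body had 7.81% HC/CH in replicate 1 (interval 5.84 to 10.2, 627 calls) and 8.50% in replicate 2 (4.6 to 14.1, 153 calls). The same body was 49.3% and 51% CC and 31.9% and 26.1% MM. Ceacam16 and Ceacam20 were also above the median of all genes in both replicates, with 6.53% and 4.82%, and 5.41% and 4.39%. Psg17 was the highest Psg body by the lower replicate, with 4.55% in both replicates, and Psg19 had 5.83% in replicate 1 and 0 of 46 calls in replicate 2.

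Ceacam genes were also split by position. The 8 that lie near the Psg genes, Ceacam3, Ceacam5, Ceacam9 and Ceacam11 to Ceacam15, had 3.34% (interval 2.83 to 3.91) and 2.97% (2.03 to 4.19) HC/CH in their bodies. The other 7, Ceacam1, Ceacam2, Ceacam10, Ceacam16, Ceacam18, Ceacam19 and Ceacam20, had 5.25% (4.73 to 5.81) and 4.05% (3.11 to 5.17), so that the intervals were apart in replicate 1 and overlapped in replicate 2. Ceacam3 and Ceacam5, which had the most body calls of the first group, had 1.87% and 1.84% in replicate 1 and 1.08% and 1.40% in replicate 2. Ceacam9, with the values above, and Ceacam15, with 6.27% and 2.20%, belong to the same group and were higher in replicate 1 than its summed level. This split was made after the values were seen and is given without a test.

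The make-up of sites modified on a single strand differed in the same way. Of the MC/CM and HC/CH calls together, hmC made up 10.7% (interval 8.78 to 12.8) and 5.08% (2.46 to 9.14) in Prl bodies. It made up 16.9% and 11.9% in Psg bodies, 29.5% and 21.0% in Ceacam bodies, and 25.6% and 22.0% in all bodies. The intervals of the Prl values excluded the value of all bodies in both replicates.

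hmC opposite mC was measured less firmly. HM/MH was 3.30% and 0.885% in Prl bodies, against 4.24% and 2.71% in all bodies. In the spike-in duplexes, MM sites were called HM/MH in 4.51% of calls of replicate 1 and 0.467% of replicate 2, which for replicate 1 is above the Prl level. After correction it was 0.346% and 0.555%, against 1.52% and 2.35% in all bodies. Prl3d1, with 3.31% and 8.33%, ranked first among Prl bodies by the lower replicate, but the latter is 2 of 24 calls.

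Low HC/CH extended over the Prl run as a whole, including the DNA between the genes. The Prl members lie in 2 places on chromosome 13, with Prl2c2, Prl2c3 and Prl2c5 near 13 Mb and 22 genes from Prl3d1 to Prl5a1 at chr13:27094190-28151611, which is 1057422 bp. Over the whole stretch from the first to the last member, 15360796 bp that mostly hold other genes, HC/CH was 3.51% and 2.92%, against 4.45% and 4.01% within 1 Mb on either side. The mean difference, -1.02 percentage points, was -0.352 with 0.5 Mb on either side. Over the dense run, taken after the gene positions were seen, it was 1.98% (interval 1.83 to 2.14) and 0.941% (0.709 to 1.22). The 1 Mb before it had 2.67% (2.50 to 2.84) and 2.13% (1.80 to 2.51), and the 1 Mb after it 4.17% (4.01 to 4.33) and 3.73% (3.42 to 4.07). The dense run was thus below both sides in both replicates, and nearer to the side before it.

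In windows of 20 kb with at least 20 calls in both replicates, 46 of the 53 windows of the dense run were below the median of the flanking windows in both replicates and 2 were above it in both. Of the 99 flanking windows, 37 were below it in both. For CC, 35 of the 53 windows were above the flanking median in both replicates and 7 below, against 35 above and 35 below of the 99 flanking windows. Summed CC was 14.3% and 12.5% in the run, against 14.5% and 11.5% in the flanks, and MM was 64.3% and 68.2%. A short stretch 840 to 920 kb from the start of Prl3d1, just before Prl4a1, departed in replicate 1, with HC/CH of 4.77%, 4.64%, 3.43% and 4.69% in its 4 windows. In replicate 2 they had 5.48%, 0.690%, 2.60% and 0%, on 73 to 145 calls each.

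**Figure D5:**
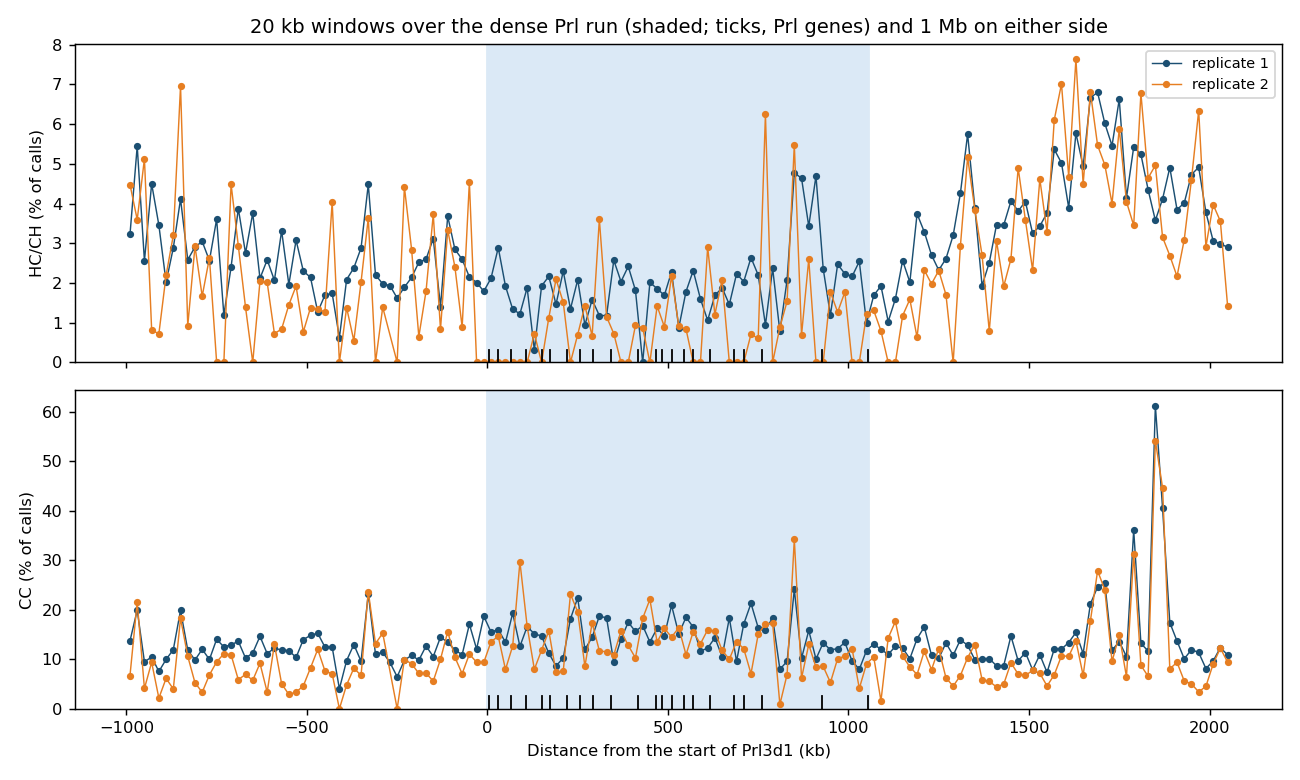
HC/CH (upper panel) and CC (lower panel), in % of calls, in 20 kb windows by distance from the start of Prl3d1 in kb, for both replicates, with the dense Prl run shaded and a tick for each Prl gene. Within the shading the median window has 1.93% HC/CH in replicate 1, against 3.06% outside, while the median for CC is 14.7% inside and 11.9% outside.

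The run of 11 Psg genes from Psg18 to Psg17, chr7:18345422-18821607, was low in HC/CH together with the DNA before it. It had 2.25% (interval 2.00 to 2.52) and 1.62% (1.16 to 2.19), the 1 Mb before it 2.37% and 1.71%, and the 1 Mb after it 4.95% and 4.89%. The higher level was thus on the side after the run, and where within that 1 Mb it begins was not read. The side before the run, which holds 5 Ceacam genes, had intervals that overlapped those of the run. CC was also higher on the side after the run, at 54.3% and 49.4% against 28.0% and 24.6% in the run.

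Calls turned by gene strand showed no strand preference in most states. In Prl genes the modified cytosine of MC/CM was on the strand of the gene in 48.2% and 51.2% of calls. Of 18 such shares, over 3 families, 3 states and both replicates, the intervals included 50% except for HM/MH in Ceacam genes of replicate 2 and in Prl genes of replicate 2. The former was 67.2% of 61 calls, and 52.8% in replicate 1. The latter was 2 of 12 calls, or 16.7%, and 49.8% in replicate 1.

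Genes that control trophoblast and other placental genes were read by the same rules. Elf5, a trophoblast stem cell factor known for its methylated promoter in embryonic stem cells, was 63.0% and 63.2% MM, and it was the only 1 of 9 trophoblast regulators called MM in both replicates. The median of the 9, which include Cdx2, Eomes and Tfap2c, was 85.0% and 75.4% CC. Of 14 placental genes outside the families, 9 had enough calls and 5 were called MM, namely Pappa2, Ctsj, Ctsq, Cts6 and Cts8. The same rule called 15.4% of all genes and 62% of those with at most 30 CpG sites. Both lists also hold genes with richer promoters, such as Cdx2 with 118 and Peg10 with 128 CpG sites. The share of CpG-poor genes is therefore not a like comparison for either list. The 4 cathepsins among the 5 placental genes called, proteases encoded on chromosome 13, were 59.5% to 65.3% MM in replicate 1. Ctsm and Cts3, with 32.7% and 31.2% in replicate 1, were not called. In replicate 2 they had 75% over 36 calls and 41.7% over 24 calls, so that the replicates differed widely for Ctsm. Low body HC/CH was not particular to the Prl genes. In replicate 1 the covered bodies of the placental list had 0.592% (Ctsj) to 2.90% (Cts8), except Syna with 6.4%, against an all-gene median of 4.85%. In replicate 2 Syna, with 9.57%, and Peg10, with 4.24%, lay above that median, 4.12%. Pituitary prolactin itself, Prl, which lies just before the dense run and is not a member, was 70.3% MM over 37 promoter calls and 71.4% over 7. Its body had 0.872% and 0% HC/CH over 344 and 69 calls, in the range of its placental relatives.

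Across the members, with the families pooled, the replicates gave related gene levels for some states. For bodies with enough calls, 46 genes, Pearson's r between replicates was 0.734 for CC, 0.547 for HC/CH and 0.475 for MM but 0.127 for HM/MH. Spearman's rho, which reads order only, was 0.729, 0.44, 0.29 and 0.195 in turn. For the 12 promoters r was 0.926 for CC and 0.870 for MM, and rho was 0.754 and 0.771. These are correlations across genes, which are not independent replicates, and they are given as a description.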

How the data were processed

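Genomic DNA of E14 mouse embryonic stem cells was read by SCoTCH-seq in 2 libraries of 1 condition. The authors trimmed reads with Cutadapt 4.6, aligned them with BSBolt to GRCm38 (mm10), removed duplicates with Picard 3.1.1, and deposited per CpG site and state the count of calls and its percentage of the depth. They kept sites with at least 5 calls outside blacklisted regions in each replicate, and the deposited counts were not corrected with the spike-ins.

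Counts were summed over the sites of each gene region and divided by all calls, in Python 3.11.15 with NumPy 2.4.6, pandas 2.3.3, SciPy 1.17.1 and Matplotlib 3.10.9. Genes were counted and ranked only with at least 20 calls in the region. Intervals are exact Clopper-Pearson at 95%, cover counting error only, and treat calls as independent. There was 1 group, so no test between samples was made, and the spread over 2 passages may be technical. Genes were named by role and by rank within a family on the lower replicate (the 2 highest for promoter CC, MM and MC/CM and for body HC/CH and HM/MH, and the least covered), and others where a sentence gives a range or a count. The members and lists were chosen with earlier results of these data known. The dense Prl run, the Psg run, the exclusion of Psg16 and the alternatives for the count below the median were chosen after seeing the data. The summing of calls and the spike-in correction were tested on simulated data, and the counting of members was not. The simulated calls used the same call rates as the correction, and the accepted error was larger than the simulated Prl HC/CH level. That check therefore does not show how exact low levels are.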

Additional observations from a re-analysis of the deposited data

How the results depend on the processing

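Of 82 alternatives to the main values, 51 left the value within the spread between replicates (for counts, within 1.5 times) and 31 moved it. For levels and the locus difference, leaving out a replicate could not count as a move. Each replicate always lies within the SD of their mean, so those settings say nothing on stability. The spread of the Psg and Ceacam promoter MM levels was very small, so that small shifts count as moves there. Prl promoter MM, 65.0% as the mean of the replicates, was 58.7% with at least 10 calls per site and 68.5% after spike-in correction. Psg promoter MM, 41.5%, was 43.9% with equal weight per site, 36.1% at sites covered in both replicates, 43.7% corrected, 41.8% without repeated windows, 55.1% without thinly covered members, 40.9% within 500 bp, 52.1% within 2 kb, 43.4% at all annotated TSSs and 47.6% without Psg16. Ceacam promoter MM, 43.6%, was 42.8%, 43.2% and 46% under the first 3 of these settings, 42.9% without thinly covered members, 40.6% within 500 bp, 47.5% within 2 kb and 49.9% at all TSSs. Psg body HC/CH, 2.20%, was 1.56% with at least 10 calls per site. Leaving out a replicate gave 0.983% to 1.93% for Prl body HC/CH.

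The count of members with MM promoters, 8 of 12 tested, was 0 of 12 at a threshold of 80% (0.0489% of all genes), 0 with at least 50 calls (1 member tested), 0 with at least 10 calls per site (0 tested), 4 of 6 within 500 bp, 25 of 41 within 2 kb, 9 of 12 without replicate 1 and 31 of 49 without replicate 2. Of all genes, 7.36% were called with at least 50 calls and 6.9% with at least 10 calls per site. Within 500 bp and 2 kb the shares were 10.6% and 20.7%. Without replicate 1 and without replicate 2 they were 19.3% and 23.2%, against 15.4% as reported. Of genes with at most 30 CpG sites at the promoter, 0.153% were called at 80%, 59% with at least 50 calls and 49.6% with at least 10 calls per site. Within 500 bp and 2 kb 57.3% and 66% of them were called, and without replicate 1 and without replicate 2 72.3% and 69.2%, against 62% as reported. The pooled member counts lay above some of these shares and below others. The number of members tested moved with the count. The count of bodies above the median for HC/CH, 3 of 46, was 7 of 46 without replicate 1 and 8 of 51 without replicate 2, where a single replicate has to pass and the share of all genes is 50% in place of 39.2%. Of genes with at most 30 CpG sites at the promoter, 31.3% and 26.7% were above it without replicate 1 and without replicate 2, in place of 19.5%. The count below the median, 34, was 19 with at least 50 calls (29 tested) and 8 with at least 10 calls per site (12 tested). These settings called 39.3% and 32.7% of all genes. Of genes with at most 30 CpG sites at the promoter they called 60.5% and 48%. The Prl stretch minus its flanks, -1.02 percentage points of HC/CH, was -0.352 with 0.5 Mb flanks and -1.96 for the dense run with 1 Mb flanks. The gap of the dense run was smaller with 0.5 Mb flanks. Its mean of 1.46% stood against 2.58% there and 3.42% within 1 Mb. The stricter minimums test fewer members by construction. For the moved levels and the locus difference the cause was not tested. No paired analysis was possible because both libraries belong to 1 group. Depth limits the promoter values, since 12 of 53 promoters had at least 20 calls in both replicates.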
